A study of Mus musculus with 5 samples.

Results

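The keratins and skin barrier genes described here were 80 genes of 9050 that the platform annotation named from probes with a single symbol. They were taken by name: symbols that start with Krt, Sprr, Lce, Klk, Tgm, Dsg or Dsc, the symbol Dsp, and Lor, Flg, Ivl, Pkp1 and Evpl. They had 133 probes, and 75 of the 80 had a value on every one of the 5 arrays, as did 8463 genes in all. The prefixes also took in 5 genes of other families, Krtcap2, Krtcap3, Krtdap, Dscaml1 and Dscc1, which were kept and are described apart. Dsg genes, Dsp, Flg, Ivl and Pkp1 were not analysed here, as no probe with a single symbol bore their names.

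Keratins are the intermediate filament proteins of epithelial cells, built as pairs of a type I and a type II chain. Cells of simple epithelia use Krt8 with Krt18, basal cells of the epidermis Krt5 with Krt14, and the cells above them Krt1 with Krt10. In the outermost layers, transglutaminases cross-link loricrin (Lor), small proline-rich proteins (Sprr) and late cornified envelope proteins (Lce) into the cornified envelope, desmosomes tie the cells together, and kallikrein proteases such as Klk5 and Klk7 help shed them. In the mouse this barrier is laid down late in gestation, in the skin of the fetus. Macrophages are blood-lineage cells that form no such barrier.

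The macrophages were grown from bone marrow of C3H/HeJ mice, a strain that carries a mutated Tlr4 and responds weakly to bacterial lipopolysaccharide (LPS). All were differentiated in culture with human colony stimulating factor 1. They were given 10 µg per ml LPS of S. minnesota for 0.5, 2, 7 or 21 h, or none (0 h). Each of these 5 groups was 1 two-colour cDNA array on which the macrophage RNA was set against RNA of whole C57BL6/J embryos of 17.5 days, so the 2 RNAs on an array differ in strain as well as in source. How many cultures, mice or embryos gave the RNA is not given in the sources used here. With 1 array per group no difference has a replicate check, no test was run, and no p-value is given.

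The values are the deposited log ratios per probe, read as base 10, averaged over the probes of a gene and centred on the median gene of each array. A ratio of 0 is therefore the median gene, and -1 is a 10-fold lower signal in macrophages relative to that gene. A gene counted as below or above the embryo when its ratio passed a 2-fold difference, 0.301 in log10 units. The direction, macrophage over embryo, is likely but not stated. It was taken from marker genes. Of 12 macrophage markers listed, 6 were measured, and their median at 0, 0.5, 2, 7 and 21 h was 0.85, 0.47, 1.09, 0.91 and 0.92. That of 4 erythroid markers was -0.98, -0.67, -1.11, -1.04 and -0.95. However, the macrophage markers Cd68 and Tyrobp averaged -0.20 and -0.17, and the erythroid marker Slc4a1 averaged 0.17. The 0.5 h array stood apart: across genes its correlation with 0 h was 0.51, against 0.76 to 0.87 for the other times (genes are not replicates), its ratios had an SD of 0.54 against 0.27 to 0.36, and 1104 of its probes had no value against 154 to 257. Means are therefore given as mean ± SD over the 0, 2, 7 and 21 h arrays, a spread across times and not across replicates. The arrays carry ratios and no spot intensities, so a ratio near 0 does not tell whether either RNA gave a signal. In bulk RNA, fewer cells of a type and less RNA per cell cannot be told apart.

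Of the 80 genes, 63 had a window in the RefSeq promoter table (build GRCm38.p6), which runs from 250 bases before to 50 bases after the annotated start. The windows below belong to the gene with the lowest mean ratio among those that had a window, in each family group where a mean passed the size rule, and they are shown as examples of the start regions of these families. No window is shown for Krt1, Lce1f or Krt15. Krtdap lies at chr7:30787655-30787954 on the plus strand, Krt13 at chr11:100121517-100121816 on the minus strand, Krtap11-1 at chr16:89571134-89571433 on the minus strand, Krt8 at chr15:102004293-102004592 on the minus strand, Lce1g at chr3:92752289-92752588 on the minus strand and Klk7 at chr7:43811044-43811343 on the plus strand. Capitals mark TATAAA, the core of the TATA box, and TGANTCA, a core bound by AP-1 factors, each on either strand.
Krtdap: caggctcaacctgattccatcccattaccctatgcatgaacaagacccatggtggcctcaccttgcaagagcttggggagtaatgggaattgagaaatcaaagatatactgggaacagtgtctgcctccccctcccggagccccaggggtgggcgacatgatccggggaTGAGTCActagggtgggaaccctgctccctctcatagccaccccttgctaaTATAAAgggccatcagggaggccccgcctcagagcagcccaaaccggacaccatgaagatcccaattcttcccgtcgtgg
Krt13: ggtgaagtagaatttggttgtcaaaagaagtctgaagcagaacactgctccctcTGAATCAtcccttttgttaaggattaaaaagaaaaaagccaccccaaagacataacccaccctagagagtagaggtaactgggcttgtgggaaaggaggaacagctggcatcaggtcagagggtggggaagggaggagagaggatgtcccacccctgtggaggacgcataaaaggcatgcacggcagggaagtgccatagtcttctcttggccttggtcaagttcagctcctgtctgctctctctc
Krtap11-1: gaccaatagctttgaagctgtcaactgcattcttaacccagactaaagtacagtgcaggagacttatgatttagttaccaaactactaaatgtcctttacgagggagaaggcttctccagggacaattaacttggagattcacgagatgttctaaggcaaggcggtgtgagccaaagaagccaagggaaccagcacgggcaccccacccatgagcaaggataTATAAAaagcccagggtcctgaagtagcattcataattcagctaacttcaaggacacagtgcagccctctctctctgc
Krt8: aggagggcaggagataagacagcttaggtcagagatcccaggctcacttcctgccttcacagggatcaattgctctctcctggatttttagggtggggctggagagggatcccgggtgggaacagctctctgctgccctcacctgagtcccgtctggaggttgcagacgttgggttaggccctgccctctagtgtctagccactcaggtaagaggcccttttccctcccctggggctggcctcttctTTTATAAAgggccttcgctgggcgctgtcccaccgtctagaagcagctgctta
Lce1g: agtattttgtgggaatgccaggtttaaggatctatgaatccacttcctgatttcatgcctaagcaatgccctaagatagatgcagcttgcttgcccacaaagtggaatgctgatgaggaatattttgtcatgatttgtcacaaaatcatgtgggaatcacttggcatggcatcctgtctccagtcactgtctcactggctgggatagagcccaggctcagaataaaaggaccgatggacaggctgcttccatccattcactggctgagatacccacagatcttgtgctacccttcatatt
Klk7: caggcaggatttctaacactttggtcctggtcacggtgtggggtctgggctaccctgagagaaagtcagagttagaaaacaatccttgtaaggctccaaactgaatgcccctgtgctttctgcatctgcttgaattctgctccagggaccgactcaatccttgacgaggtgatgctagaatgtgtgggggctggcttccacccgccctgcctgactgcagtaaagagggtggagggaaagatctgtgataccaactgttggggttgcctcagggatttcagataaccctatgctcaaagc

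The letters TATAAA occurred in 29 of the 63 windows (46%) on either strand, beside 14.2% of 27025 genes in the table. They began between positions -45 and -15, where a TATA box sits, in 24 of the 63 (38.1%), beside 3.21% of all genes. Krtdap had the match at -30 and Krtap11-1 at -28, while the 2 overlapping matches of Krt8 lay at -3 and -1. TGANTCA was found in 8 windows (12.7%, beside 7.93% of all genes), among them Krtdap at -81 and Krt13 at -196. GCCNNNGGC, a core of AP-2 factors, occurred in 6 (9.52%, beside 16.5%) and GAGGAA, a core of ETS factors, in 23 (36.5%, beside 28.3%). Neither TATAAA nor TGANTCA is in the windows of Lce1g and Klk7. Many of these genes are neighbouring copies in the genome, so their windows are not independent of each other, and a match describes letters, not a bound site.

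In the likely direction, the ratios of these genes lay low in macrophages at every time. With the direction turned, every count below the embryo would be a count above it, and the reverse. At 0 h, 28 of the 75 were below the embryo by 2-fold or more, where 8.77% of all genes were. After 0.5 h of LPS 35 genes were below (16.9% of all genes), after 2 h 33 (12.8%), after 7 h 20 (7.86%) and after 21 h 27 (8.97%). Above the embryo stood 2 genes at 0 h (8.68% of all genes), and after 0.5, 2, 7 and 21 h 4 (23.3%), 6 (13.4%), 1 (12.3%) and 5 (9.67%). The median ratio of the 75 was -0.18, -0.27, -0.22, -0.17 and -0.14 at 0, 0.5, 2, 7 and 21 h, and that of all genes is 0 by the centring. In 13 genes the ratio was below the embryo by 2-fold on all 5 arrays (3.67% of all genes) and in none above it on all 5 (2.28%). The ratio had a minus sign on all 5 arrays in 42 of the 75, beside 23.9% of all genes. The shift was not shared by every gene: 21 of the 75 passed the size rule on no array, beside 3829 of all 8463 genes. A plus sign on all 5 arrays was seen in 3 of the 75, beside 1902 of the 8463. Read as base 2, which the files leave possible, 2, 5, 4, 1 and 2 of the 75 would be below at 0, 0.5, 2, 7 and 21 h, beside 0.72%, 1.47%, 1.36%, 0.50% and 0.64% of all genes.

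**Figure D1:**
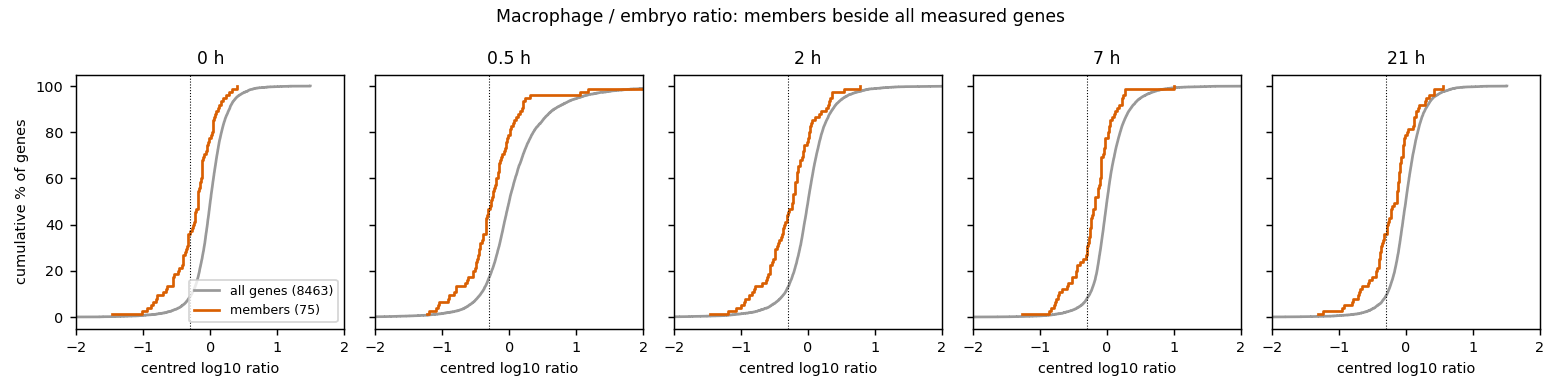
Cumulative share of genes (y axis) against the centred log10 ratio of macrophage over embryo (x axis) on each of the 5 arrays, for the keratins and skin barrier genes and for all 8463 genes. The curve of the 75 genes lies to the left of that of all genes over the lower ratios, with medians from -0.27 to -0.14.

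The shift was uneven across families. Among the keratins of stratified epithelium 9 of 12 had a mean below the embryo, and among cornified envelope genes 10 of 19. For the hair keratins and keratin-associated proteins it was 2 of 20, for the simple epithelial keratins 2 of 5 and for the kallikreins 2 of 10. None of the 3 transglutaminases was below, and neither was Dsc2, the 1 desmosome gene. Over all genes 8.79% had such a mean below and 9.18% above the embryo.

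**Figure D2:**
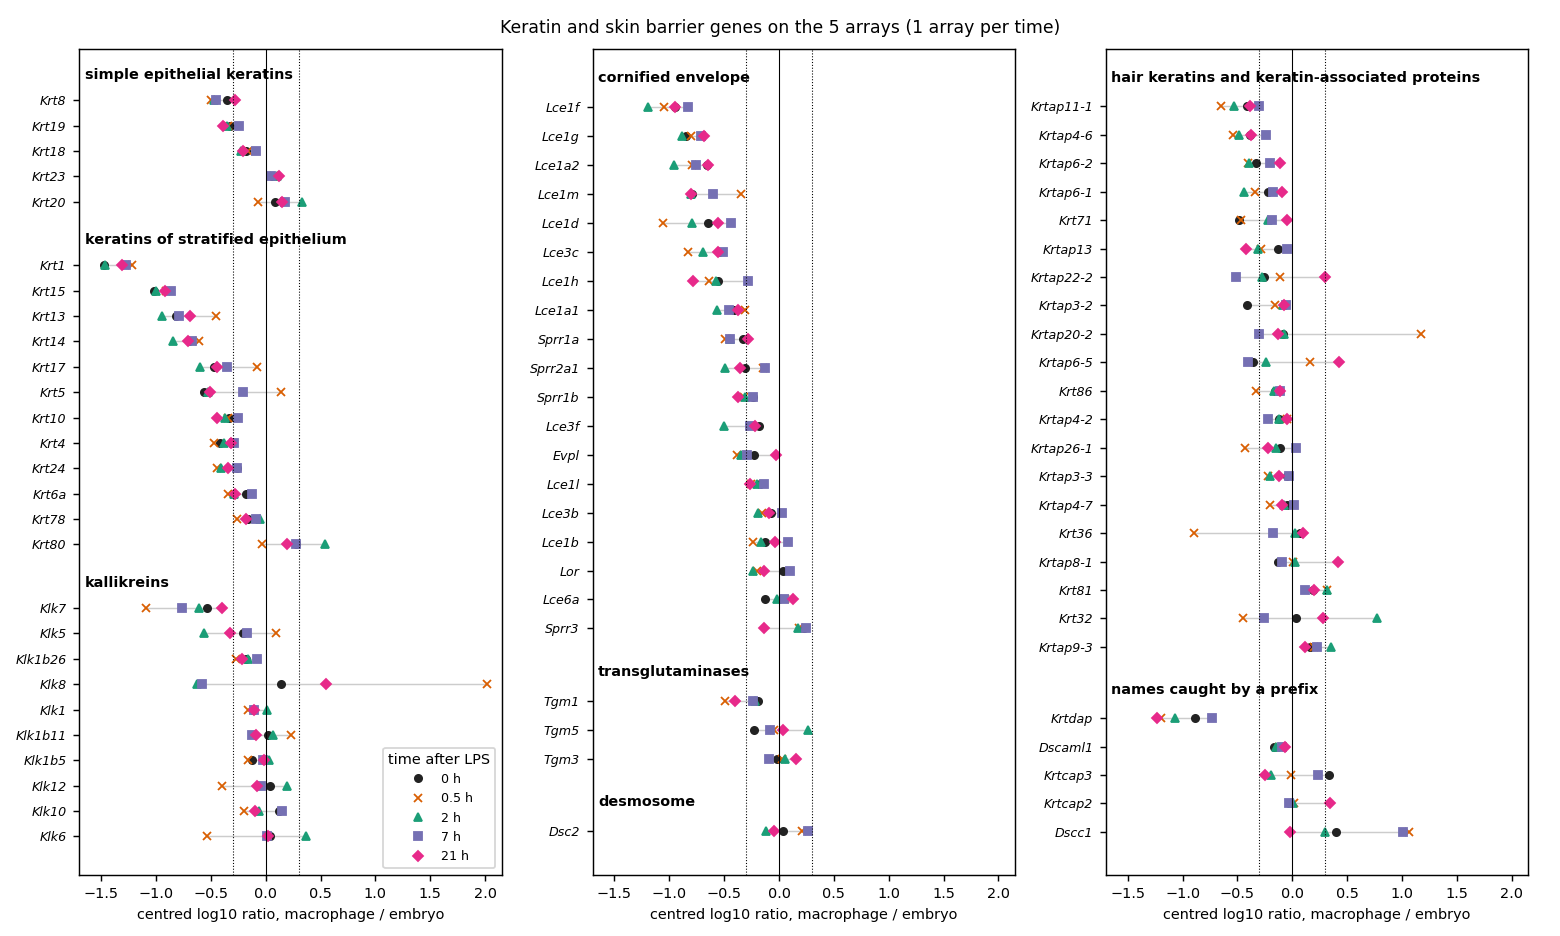
Centred log10 ratio of macrophage over embryo (x axis) of each gene on each array, with genes in rows grouped by family and 1 point per array. The lowest points belong to Krt1, from -1.47 to -1.22, and points past the 2-fold lines to the right are few.

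Krt1, the type II keratin of the layers above the basal one, had the lowest ratio of all 75 genes. Its single probe read -1.47, -1.22, -1.46, -1.27 and -1.31 at 0, 0.5, 2, 7 and 21 h. That is a mean of -1.38 ± 0.10, or a 23.9-fold lower ratio than the median gene, and all 5 arrays lay close together. Its type I partner Krt10 read -0.33, -0.34, -0.37, -0.26 and -0.45 in the same order of times, but its 2 probes averaged -0.80 and 0.09, so the gene's mean of -0.35 ± 0.08 stands between probes that disagree.

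The basal pair was also low on most arrays. Krt14, the type I keratin of basal cells, read -0.70, -0.61, -0.84, -0.68 and -0.71 at 0, 0.5, 2, 7 and 21 h, a mean of -0.73 ± 0.07 over 3 probes that averaged from -1.10 to -0.52. All 3 probes were past the size rule at 0, 2, 7 and 21 h and 2 of them at 0.5 h. Krt5, its type II partner, had 1 probe, with -0.56, 0.14, -0.53, -0.20 and -0.51 in that order. The values of 0, 2 and 21 h lie close together past the size rule, and those of 0.5 and 7 h stand above them.

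Krt15, a type I keratin of basal cells and of the hair follicle bulge, was low throughout, with -1.01, -0.91, -1.0, -0.87 and -0.92 on its 1 probe and a mean of -0.95 ± 0.07. Krt13, the keratin of internal stratified epithelia such as the oesophagus, read -0.81, -0.45, -0.95, -0.79 and -0.69 over 7 probes, the most of any keratin here. At 0, 2, 7 and 21 h, 6, 6, 7 and 6 of its 7 probes were past the size rule, and the probes ranged from -1.24 to -0.20. At 0.5 h only 4 of the 7 were, and they ranged from -1.30 to 0.55. Krt4, the partner of Krt13, read -0.41, -0.48, -0.38, -0.29 and -0.32 on 3 probes, 1 of which had no value at 0 h. The other 2 averaged -0.82 and -0.03 and together read -0.41, -0.46, -0.47, -0.35 and -0.47.

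Krt17 and Krt6a, keratins of hair follicles and of wounded epidermis, were lower by less. Krt17 read -0.47, -0.08, -0.60, -0.35 and -0.45 on 2 probes, so the 0.5 h array stood apart here too. Krt6a read -0.18, -0.34, -0.29, -0.12 and -0.28 on 3 probes and was past the size rule at 0.5 h alone, where 1 probe had no value. The 2 Krt6a probes with a value on all arrays read -0.20, -0.34, -0.30, -0.13 and -0.25. Krt24 read -0.27, -0.44, -0.40, -0.26 and -0.34 on 2 probes. Krt78, on 1 probe, lay between -0.27 and -0.06.

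Krt80 was the exception among these 12, with 0.28, -0.04, 0.54, 0.27 and 0.19 and a mean of 0.32 ± 0.15. Its 2 probes averaged -0.00 and 0.64, so a single probe carried the value above the embryo.

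Keratins of simple epithelia, which line ducts, gut and other organs of the embryo, lay nearer to 0. Krt8 read -0.35, -0.50, -0.47, -0.46 and -0.28 on 1 probe, a mean of -0.39 ± 0.09. Its partner Krt18 lay between -0.22 and -0.09 and passed the size rule on no array. Krt19, a type I keratin of ducts and other simple epithelia, read -0.33, -0.34, -0.35, -0.25 and -0.39 on 3 probes that averaged from -0.45 to -0.21. The intestinal keratin Krt20 was the highest of these genes, with 0.09, -0.07, 0.33, 0.17 and 0.15 on 2 probes, 1 of which had no value at 0 h. Krt23 stayed between 0.05 and 0.12 on 1 probe. Krt7 had a value on 3 arrays only, -0.31 at 0 h, -0.14 at 0.5 h and -0.33 at 2 h.

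**Figure D3:**
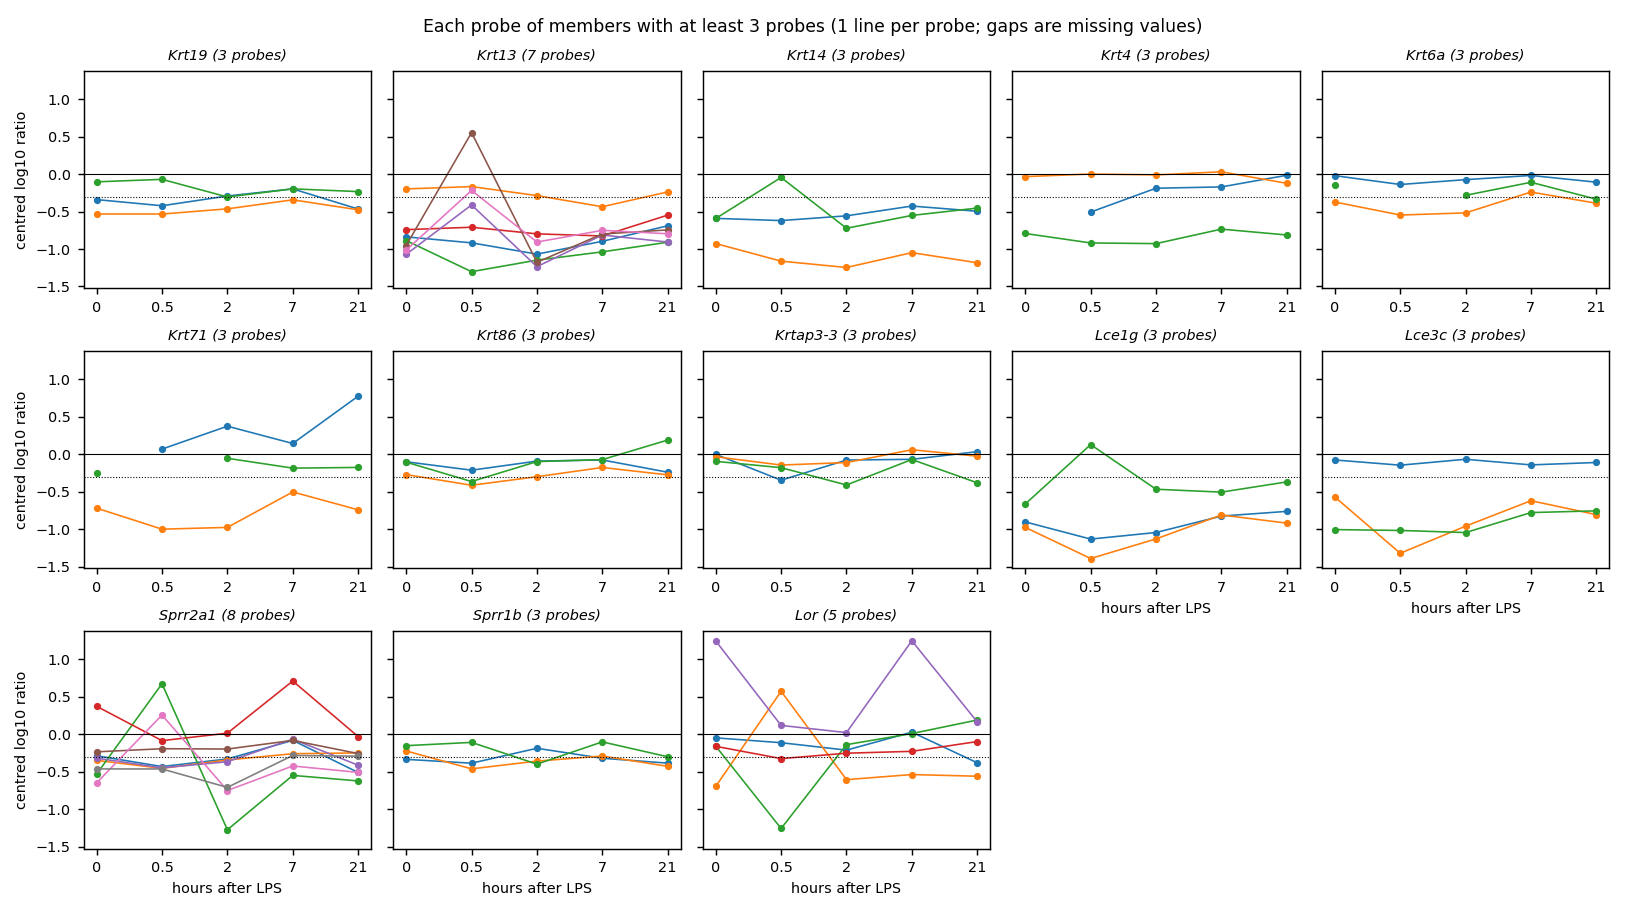
Centred log10 ratio of macrophage over embryo (y axis) of every probe of the genes with at least 3 probes, except Dscaml1, against the time after LPS in h (x axis), with 1 line per probe. Probes of Krt14 and Lce1g run low together, whereas those of Lor and Sprr2a1 lie on both sides of 0.

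Of the 19 cornified envelope genes with a value on all arrays, 7 were below the embryo on all 5, beside 3.67% of all genes. None was above the embryo by 2-fold on any array. The Lce1 genes, late envelope proteins made as the cells cornify, made up 6 of those 7, and Lce3c was the other. Of the Lce1 genes, 7 of 9 were below the embryo at 0, 0.5, 2 and 21 h and 6 at 7 h, with medians of -0.64, -0.63, -0.79, -0.46 and -0.65 at 0, 0.5, 2, 7 and 21 h. Of all genes 8.77%, 16.9%, 12.8%, 7.86% and 8.97% were below at these 5 times. Lce1f was the lowest, with -0.95, -1.05, -1.19, -0.83 and -0.95 at 0, 0.5, 2, 7 and 21 h and a mean of -0.98 ± 0.15. Both of its probes were past the size rule on all 5 arrays. Lce1g read -0.85, -0.80, -0.88, -0.71 and -0.68, with all 3 probes past the size rule on every array but that of 0.5 h, where 2 were.

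Lce1d, whose 2 probes were likewise past the size rule on all 5 arrays, read -0.64, -1.06, -0.79, -0.44 and -0.55. Lce1m read -0.80, -0.35, -0.80, -0.60 and -0.80 on 2 probes. Lce1a1, the least low of the Lce1 genes with several probes, read -0.41, -0.31, -0.56, -0.46 and -0.37 on 2. Of those on 1 probe, Lce1a2 had a mean of -0.75 ± 0.14 and Lce1h of -0.55 ± 0.21. Lce1l and Lce1b passed the size rule on no array. The Lce genes are close copies of each other, and cross-hybridisation between them on cDNA probes was not tested.

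The remaining envelope genes were mixed. Lce3c read -0.55, -0.83, -0.69, -0.51 and -0.56, yet its 3 probes averaged from -0.90 to -0.10. Lce3f passed the size rule at 2 h alone, while Lce3b and Lce6a, at means of -0.08 and 0.00, passed it on no array. Among the small proline-rich proteins, Sprr1a had a mean of -0.38 ± 0.08 on 1 probe. Sprr1b read -0.24, -0.32, -0.31, -0.24 and -0.37 on 3 probes that averaged from -0.32 to -0.24.

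Sprr2a1, with 8 probes the best covered of all 80 genes, read -0.31, -0.14, -0.49, -0.13 and -0.36, and its probes averaged from -0.74 to 0.27. The gene belongs to a cluster of near-identical Sprr2 copies. Sprr3 was the highest gene of the envelope, with 0.23, 0.18, 0.17, 0.24 and -0.13 on 1 probe. Lor, which encodes the main protein of the envelope, read 0.04, -0.20, -0.24, 0.10 and -0.14, near the median gene, but this mean hid 5 probes that averaged from -0.60 to 0.67. Evpl, the envoplakin that anchors keratin filaments to the envelope, averaged -0.22 ± 0.14. Sprr2j-ps had no value at 7 h and read -0.04, 0.51, -0.05 and -0.02 at 0, 0.5, 2 and 21 h.

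Of the transglutaminases, Tgm1, the membrane-bound enzyme of the epidermis, was lowest, with -0.19, -0.49, -0.22, -0.23 and -0.40 on 1 probe. Tgm3, the enzyme of hair and of late epidermal layers, was highest and near 0, at -0.02, 0.03, 0.05, -0.09 and 0.15. Tgm5 ranged from -0.23 to 0.26. The desmosomal cadherin Dsc2 read 0.04, 0.21, -0.12, 0.27 and -0.04 on 2 probes and passed the size rule on no array.

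Hair keratins and keratin-associated proteins, which form the hair shaft and its matrix, had medians of -0.13, -0.25, -0.15, -0.17 and -0.09 over 20 genes. None was below the embryo on all 5 arrays, where 3.67% of all genes were. Krtap11-1 was the lowest, with -0.42, -0.65, -0.53, -0.30 and -0.38, and Krtap4-6 came next with a mean of -0.37 ± 0.10. Krtap9-3 was the highest, with 0.17, 0.20, 0.35, 0.22 and 0.12. The means of Krt81 and Krt32, both hair keratins, were within its spread at 0.21 each, but Krt32 ranged from -0.45 at 0.5 h to 0.77 at 2 h. On single probes, 11 further keratin-associated protein genes had means from -0.26 (Krtap6-2) to 0.06 (Krtap8-1). Their single arrays reached further. At 0.5 h, which the means leave out, Krtap20-2 read 1.17, while Krtap6-1, Krtap6-2 and Krtap26-1 were below the embryo. At 21 h Krtap6-5 (0.43), Krtap8-1 (0.42) and Krtap22-2 (0.30) were above the embryo and Krtap13 (-0.42) was below it.

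Of the hair genes with several probes, Krt86 read -0.16, -0.33, -0.16, -0.11 and -0.11 on 3 probes. Krtap3-3 read -0.04, -0.22, -0.20, -0.03 and -0.13 on 3. Krt36 lay near 0 except at 0.5 h, with 0.07, -0.89, 0.03, -0.17 and 0.10 on 2. Krt71, a keratin of the inner root sheath of the hair follicle, read -0.49, -0.47, -0.22, -0.18 and -0.05, but only 1 of its 3 probes had a value on every array. That probe alone read -0.72, -1.0, -0.98, -0.50 and -0.74. Of the hair genes, 3 lacked an array: Krt33a read from -0.23 to -0.17 and Krtap3-1 from -0.30 to 0.02, both without 0.5 h, and Krtap4-13 from -0.93 to -0.45, without 7 h.

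Among the kallikreins, Klk7, a protease that cleaves desmosomal proteins in the outermost layer, was the lowest and the only one below the embryo on all 5 arrays, with -0.54, -1.09, -0.61, -0.77 and -0.40 on 1 probe. Klk5, which can activate it, had a mean of -0.32 ± 0.18 and passed the size rule at 2 and 21 h. Klk6 was the highest by mean, with 0.04, -0.54, 0.36, 0.01 and 0.02. Klk1 and Klk1b5, the tissue kallikrein of glands and kidney and a close relative, lay near 0: Klk1 read -0.12, -0.16, 0.01, -0.10 and -0.11, and Klk1b5 read -0.13, -0.16, 0.03, -0.02 and -0.02, on 2 probes each. None of the 4 Klk1 and Klk1b genes passed the size rule on any array. Klk10 and Klk12 both averaged 0.03, and Klk12 read -0.40 at 0.5 h.

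Klk8, a protease of epidermis and brain, was the least stable gene of the 75. Its 1 probe read 0.14, 2.02, -0.63, -0.58 and 0.55 at 0, 0.5, 2, 7 and 21 h. These values lie on both sides of the embryo past the size rule, so its mean of -0.13 ± 0.57 describes none of them.

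Of the 5 genes that only share a prefix, Krtdap, which encodes a secreted protein of differentiating keratinocytes, had a mean like that of Lce1f, with -0.89, -1.20, -1.07, -0.73 and -1.24 and a mean of -0.98 ± 0.22 on 1 probe. Dscc1, a factor for loading the replication clamp during DNA replication, was the highest gene by mean among all 75, with 0.40, 1.07, 0.30, 1.01 and -0.02. Dscaml1, a cell adhesion molecule of neurons, read -0.16, -0.12, -0.15, -0.09 and -0.07 on 4 probes. Krtcap3 read 0.33, -0.01, -0.19, 0.23 and -0.25. Krtcap2, a subunit of the oligosaccharyltransferase, stayed between -0.03 and 0.01 up to 7 h and read 0.35 at 21 h.

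The time comparison asked whether these ratios moved after LPS. For most of the genes they did not move by 2-fold: 57 of the 75 (76.0%) differed from 0 h by less at each of 2, 7 and 21 h, as did 83.6% of all genes. At 2 h, 4 of the 75 were higher than at 0 h (4.45% of all genes) and 5 lower (2.58%). At 7 h, 4 were higher (3.36%) and 1 lower (1.45%), and at 21 h, 7 were higher (4.38%) and 4 lower (4.61%). At 0.5 h, 9 were higher (19.8%) and 12 lower (10.8%). The median differences were -0.07, -0.04, 0.05 and 0.01 at 0.5, 2, 7 and 21 h. Those at 0.5, 2 and 21 h changed sign under other settings, with ranges of -0.08 to 0.08, -0.04 to 0.03 and -0.01 to 0.08. All 4 comparisons share the 0 h array. Pooled over genes with several probes, the SD between probes in a difference was 0.55, 0.23, 0.14 and 0.22 at these times, so differences near the size rule are within reach of the probe spread.

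**Figure D4:**
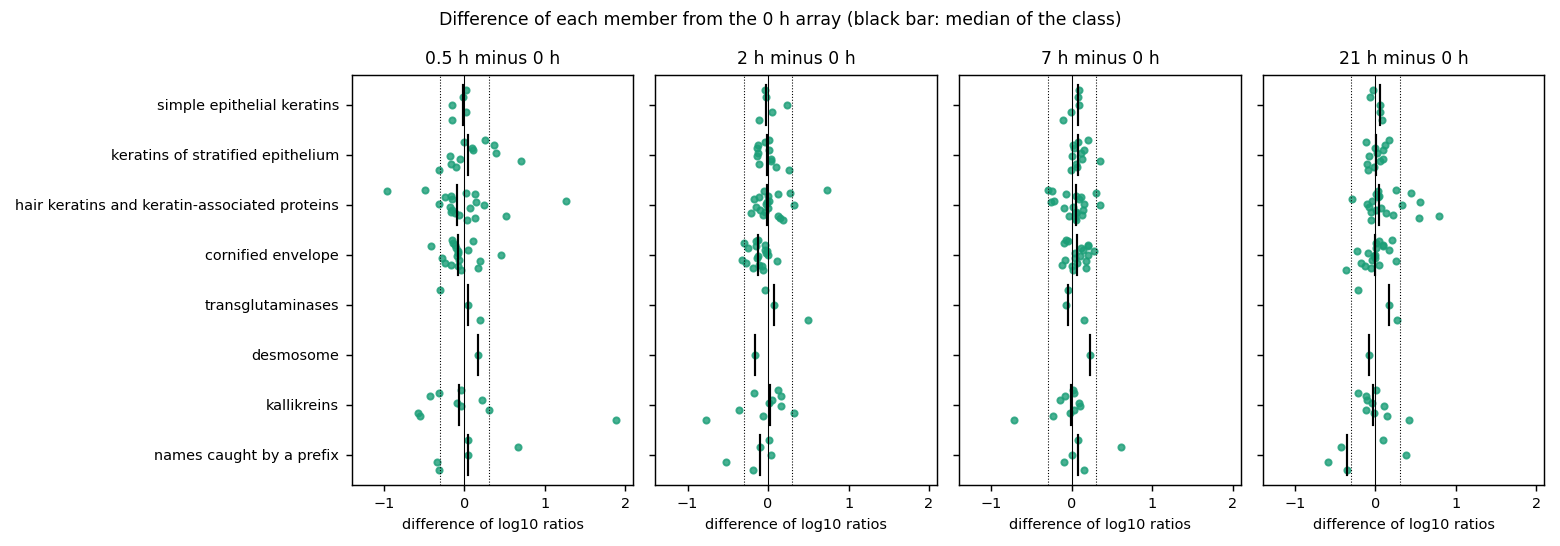
Difference of the centred log10 ratio from 0 h (x axis) for each gene, by family group (rows) and in 1 panel for each of 0.5, 2, 7 and 21 h after LPS, with 1 point per gene, black bars at the group medians and dotted lines at the 2-fold rule. Most points lie between the lines at 2, 7 and 21 h, and Klk8 spans from 1.89 at 0.5 h to -0.77 at 2 h.

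The largest difference in each direction at 2, 7 and 21 h was read from 1 probe. At 2 h the extremes were Krt32 (0.74 higher) and Klk8 (-0.77). At 7 h they were Dscc1 (0.61) and again Klk8 (-0.71), the 1 gene lower. At 21 h they were Krtap6-5 (0.79) and Krtcap3 (-0.58). At 0.5 h Klk8 was higher by 1.89, and Krt36 was lower by -0.96 with an SD of 1.44 between its 2 probes.

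In all, 5 genes were past the size rule on at least 2 of the 3 later arrays. The share of all genes that passed it so often was not counted, so 5 cannot be set against a background. Klk8 differed by -0.77, -0.71 and 0.42 at 2, 7 and 21 h, and so changed sign. Krtap3-2, which read -0.41 at 0 h and -0.16, -0.08, -0.05 and -0.07 at 0.5, 2, 7 and 21 h, was higher by 0.33, 0.35 and 0.33 at 2, 7 and 21 h, and its 0 h value was the lowest of the 5. Krtcap3 was lower at 2 h (-0.52) and 21 h (-0.58) and Dscc1 higher at 7 h (0.61) and lower at 21 h (-0.42). Krt71 was higher by 0.30 at 7 h and 0.44 at 21 h from a changing set of probes, and its 1 probe with a value on all arrays differed by 0.21 and -0.02.

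No keratin of stratified epithelium was past the size rule at 2 or 21 h. At 7 h Krt5 was higher than at 0 h by 0.36, on 1 probe, while Krt14 differed by 0.03, Krt1 by 0.20 and Krt15 by 0.15. In the envelope, Lce3f (-0.32) and Lce1a2 (-0.30) were lower at 2 h and Sprr3 (-0.36) at 21 h, each on 1 probe. At 0.5 h, Krt5 (0.70), Krt17 (0.39 ± 0.23, SD over 2 probes) Lce1m (0.45 ± 0.80, 2 probes) and Krt13 (0.36 ± 0.66, 7 probes) were higher. Lce1d (-0.42 ± 0.10, 2 probes), Krt80 (-0.32 ± 0.73, 2 probes) and, on 1 probe each, Tgm1 (-0.30) and Krtdap (-0.31) were lower. For Krt13, Lce1m and Krt80 the probe SD exceeded the difference.

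Some features of the arrays moved with these counts. In stretches of 400 probe numbers whose 0.5 h ratios correlated at 0.7 or more with the mean of the later arrays, 14 of 55 probes of these genes (25.5%) were past the size rule at 0.5 h, as were 23.8% of all probes there. Elsewhere it was 26 of 71 (36.6%), beside 36% of all probes. Because the stretches were picked by how the 0.5 h array followed the later ones, a lower share in them is partly built in. At 21 h, 4 of the 17 probes of these genes numbered up to 2000 were higher and none lower, where 14.8% of all probes there were higher and 1.41% lower; of the 116 numbered above 2000, 3 were higher and 7 lower, where 4.95% and 6.31% of all probes were. Krtap6-5, Krtap22-2, Krtap8-1, Klk8 and Krt71, 5 of the 7 genes higher at 21 h, have all their probes among the first 2000. With those probes left out before centring, 3 genes were higher. The part of array position in these differences was not tested further.

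The genes lie in clusters, and the clusters differed in their ratios. By gene order in RefSeq (GRCm38.p6), with neighbours at most 25 protein-coding genes apart, 68 of 78 located genes fell into 6 runs. Over all genes 8.79% had a mean below the embryo. In the run of Lce and Sprr genes and Lor, the epidermal differentiation complex, 10 of 18 means were below it, with a median of -0.35. In the type I run of keratins and keratin-associated proteins 8 of 17 were, with Krt15 lowest at -0.95 and Krtap9-3 highest at 0.21. In the type II keratin run 4 of 11 were, from Krt1 at -1.38 to Krt80 at 0.32. In the kallikrein run 2 of 10 were, with a median of -0.06, and in the remaining runs of 5 and 3 Krtap genes 0 and 1. Neighbours thus did not share 1 ratio.

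Other genes of epidermal differentiation and epithelial barriers, 32 of 62 listed, also lay low by their medians, which ran from -0.22 to -0.10. At 0, 0.5, 2, 7 and 21 h, 9, 10, 12, 12 and 12 were below the embryo, beside 8.77%, 16.9%, 12.8%, 7.86% and 8.97% of all genes. Above it were 1, 3, 1, 3 and 1, beside 8.68%, 23.3%, 13.4%, 12.3% and 9.67%. The lowest means were those of Hrnr (-1.13), an envelope protein of the filaggrin family, Cdh1 (-0.82), the cadherin of epithelial junctions, and Dmkn (-0.82), a secreted protein of the epidermis. The highest were those of Plec (0.40), which links filaments to junctions and is widely expressed, and of the transcription factors Klf4 (0.33) and Grhl2 (0.17). Compared with 0 h, 6 of the 32 were higher and 3 lower at 0.5 h, beside 19.8% and 10.8% of all genes. At 2 h 0 were higher and 1 lower (4.45% and 2.58%), at 7 h 1 and 1 (3.36% and 1.45%), and at 21 h 2 and 2 (4.38% and 4.61%).

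Other tissues of the embryo gave a scale for these ratios. On the arrays of 0, 0.5, 2, 7 and 21 h, 8.77%, 16.9%, 12.8%, 7.86% and 8.97% of all genes were below the embryo. Of 24 measured collagen genes, 17, 16, 17, 18 and 14 were below it at these times, with medians from -0.73 to -0.49. Of 30 genes taken by symbol for the muscle contractile apparatus (Myh, Myl, Tnn, Tpm, Acta and Actc), 16, 14, 17, 16 and 17 were. Their medians ran from -0.36 to -0.19, and single genes reached 1.45 at 7 h. The keratins of stratified epithelium, with medians from -0.46 to -0.28, lay between these lists at 0, 0.5, 2 and 21 h and next to the muscle list at 7 h. A narrower list of 6 skeletal muscle markers, most of them in the muscle list, had medians of -0.51, -0.83, -0.58, -0.46 and -0.68. Those lay below the medians of the keratins of stratified epithelium on every array, so the order depends on the muscle list used. The whole set of 75 lay nearer to 0 than the collagens on every array and than the muscle genes at 0, 2, 7 and 21 h. The keratinocyte markers, 8 of 11 measured and mostly members of the set, had medians from -0.59 to -0.41, with 7, 5, 7, 5 and 7 of the 8 below the embryo and none above it on any array.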

How the data were processed

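For each array the deposited table lists log10 ratios by probe, made by the authors. The base was judged from globin probes (median -1.46 at 0 h over 55) and is not stated. How spots were scanned, background-corrected or normalized is not given in the sources used here. Scale, centring and direction by the authors therefore stay unknown; the deposited medians were 0.04, 0.07, 0.05, 0.00 and 0.03 at 0, 0.5, 2, 7 and 21 h. Per the labels, labelling was indirect, with amino-allyl chemistry and Cy3. Of 19828 probes, 14759 bore 1 symbol in the platform's annotation, 170 bore several and 4899 none here. Updating symbols through Entrez identifiers (14628 matched) changed no gene of the set. The probes of a gene with a value were averaged per array, and each array was centred on the median over 8463 genes. Depth does not apply to arrays; their number limits the precision.

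The genes and lists were chosen with earlier results of these data known. Values on every array were given for Krt1, Krt5, the lowest and highest gene of each family group, genes with several probes and genes past the size rule at 2 or more of 2, 7 and 21 h; of the pathway list, the 3 lowest and highest were named. Other genes past the size rule, Krt15 and the genes printed by mean alone were named after their values were seen. Alternatives covered centring, scaling, array position, probe averaging, size rule, log base, baseline and membership. The steps were tested on simulated data with independent noise and effects larger than the 2-fold rule. That does not show how reliable 2-fold differences are on these arrays. Promoter windows came from RefSeq (GRCm38.p6). Python 3.11.15, numpy 2.4.6, pandas 2.3.3, statsmodels 0.14.6 and matplotlib 3.10.9 were used.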

Additional observations from a re-analysis of the deposited data

How the results depend on the processing

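With the settings that bear on it, the median ratio ranged from -0.22 to -0.15 at 0 h, -0.28 to -0.13 at 0.5 h, -0.24 to -0.19 at 2 h, -0.22 to -0.15 at 7 h and -0.18 to -0.08 at 21 h. The median difference ranged from -0.08 to 0.08 at 0.5 h, -0.04 to 0.03 at 2 h, 0.02 to 0.10 at 7 h and -0.01 to 0.08 at 21 h. Of 300 alternative means of single genes, 299 moved by less than the pooled SD between probes, and Klk8 averaged 0.30 over all 5 arrays. That SD was 0.33, 0.34, 0.32 and 0.29 at 0, 2, 7 and 21 h, about as wide as the 2-fold rule. A mean could thus shift by 2-fold without counting as moved, so this count says little on stability. With the 2-fold rule and log base 10 kept, the genes below the embryo numbered from 17 to 30 at 0 h, 22 to 36 at 0.5 h, 19 to 34 at 2 h, 15 to 30 at 7 h and 18 to 31 at 21 h, the lowest at each time over the 49 genes of the stretches named below. Of 274 alternative counts 95 moved by over 1.5 times, and in each case the cause was not tested beyond the setting itself. Counts were compared as they stood, although 2 settings held only 49 and 63 of the 75 genes. A count can move there through the smaller set alone. Below and above are relative to the embryo, higher and lower relative to 0 h. Without centring, 7 and 2 lower at 0.5 and 7 h. After quantile normalization, 4 and 3 above at 0 and 7 h (14.5% of all genes at each) and 7, 2 and 5 lower at 0.5, 2 and 7 h. With each array scaled to 1 median absolute deviation, 22 below at 0.5 h (9.20% of all genes), 3 above at 7 h (15.4%), 15 higher at 0.5 h and 6, 2 and 2 lower at 0.5, 2 and 7 h. With a running median over 400 probe numbers removed, 1 above at 0 h (7.14% of all genes) and 3 lower at 7 h. At a size rule of 1.5-fold, 5, 8, 6 and 8 above at 0, 0.5, 7 and 21 h, 36 below at 7 h, 14, 8, 11 and 12 higher at 0.5, 2, 7 and 21 h and 12, 6 and 8 lower at 2, 7 and 21 h. Of all genes 19.0%, 32.5%, 22.2% and 20.3% were then above at 0, 0.5, 7 and 21 h, and 16.1% below at 7 h. At 3-fold, 15, 18, 13 and 13 below at 0, 0.5, 7 and 21 h, 0, 2 and 1 above at 0, 2 and 21 h, 5, 2, 1 and 3 higher at 0.5, 2, 7 and 21 h and 4, 2 and 1 lower at 0.5, 2 and 21 h. Of all genes 3.85%, 8.14%, 3.40% and 3.85% were then below at 0, 0.5, 7 and 21 h. Above at 0, 2 and 21 h were 3.15%, 6.38% and 3.73%. Read as log base 2, 2, 5, 4, 1 and 2 below at 0, 0.5, 2, 7 and 21 h, 0, 0 and 0 above at 0, 2 and 21 h, 2, 0, 0 and 0 higher at 0.5, 2, 7 and 21 h and 0, 0, 0 and 0 lower at 0.5, 2, 7 and 21 h. Of all genes 0.72%, 1.47%, 1.36%, 0.50% and 0.64% were then below, and 0.26%, 1.05% and 0.30% above, in the same order. Read as natural log, 8, 10, 10, 8 and 7 below at 0, 0.5, 2, 7 and 21 h, 0, 1 and 0 above at 0, 2 and 21 h, 3, 1, 0 and 1 higher at 0.5, 2, 7 and 21 h and 1, 1 and 0 lower at 0.5, 2 and 21 h. Of all genes 1.76%, 3.45%, 3.17%, 1.52% and 1.51% were then below, and 0.90%, 2.95% and 1.15% above, in the same order. For higher and lower in these alternatives, the share of all genes was not counted. Without the 5 genes of other families, 0 and 0 above at 0 and 7 h and 1 lower at 21 h. Against the 0.5 h array in place of 0 h, 8, 14 and 11 higher at 2, 7 and 21 h and 11, 7 and 9 lower at 2, 7 and 21 h. With the loess trend on the mean ratio removed, 7, 2 and 2 lower at 0.5, 2 and 7 h. Over the stretches where the 0.5 h array followed the later ones (49 genes), 17, 22 and 19 below at 0, 0.5 and 2 h, 0 and 0 above at 0 and 7 h, 3 higher at 0.5 h and 5 and 2 lower at 0.5 and 21 h. Without the probes numbered up to 2000 (63 genes), 3 and 0 lower at 2 and 7 h and 3 higher at 21 h. Of 347 alternative differences of named genes 282 kept their side of the size rule, 56 fell within it and 9 changed sign. Dscc1 at 0.5 h was at -0.00239 after quantile normalization and -0.40 with the loess trend removed, and Krtdap at 0.5 h was at 0.28 when scaled and 0.00921 with that trend removed. Lce1d at 0.5 h was at 0.079 when scaled, and Krt71 at 21 h at -0.023 over probes with a value on all arrays. Against the 0.5 h array Dscc1 at 7 h was at -0.058, Krt5 at 7 h at -0.34 and Klk8 at 21 h at -1.47. The stretches and the cut at probe number 2000 were chosen after seeing the data. No paired analysis was possible because each time had 1 array. Signal over background is unknown, so low signals could not be filtered.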
